A study of Mus musculus with 12 samples.

Results

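The peptidases of the proximal tubule brush border were followed in whole mouse kidneys at postnatal day 3. The group comprised 7 genes, taken by exact symbol from the 24062 gene rows of the count files: *Mep1a* and *Mep1b* (the meprin subunits), *Anpep* (aminopeptidase N), *Mme* (neprilysin), *Dpp4* (dipeptidyl peptidase 4), *Dpep1* (membrane dipeptidase) and *Ggt1* (gamma-glutamyltransferase). All 7 had a row in each of the 12 files, and all 7 passed the filter on low counts in every comparison. Each of the 4 groups held 3 kidneys, of which 2 came from litter 1 and 1 from litter 2. Whether kidneys of the same litter came from separate pups was not stated, so p values measure the spread between these kidneys.

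LIN28B OE mice (labelled LIN28OE, strain C57BL/6) carried human LIN28B behind a doxycycline-responsive promoter, with the transactivator switched on by Wt1-Cre, so that the transgene was limited to the Wt1 lineage, which includes nephron progenitors and podocytes. A pulse of doxycycline in the drinking water was given during gestation. LIN28B control kidneys came from C57BL/6 littermates labelled wild type. The let-7 KO mice (labelled let7KO) lacked let-7a1, let-7d and let-7f1 in every cell, and their let-7 WT littermates shared the same mixed CD1 and C57BL/6 background. The exact alleles carried by either set of littermates, and whether the let-7 mice received doxycycline, were not stated. In the kidneys the deleted let-7 genes were at 0 counts in all 3 let-7 KO libraries, although in let-7 WT they reached at most 35 counts, so this check rests on few reads. *Lin28b* lay between 1.17 and 4.19 CPM (counts scaled to library size after TMM normalization) in LIN28B OE and between 0 and 0.628 CPM in its controls. Reads of the human transgene and of the mouse gene were not separable in this row.

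Brush border peptidases are enzymes anchored on the microvilli of the proximal tubule, with their catalytic domains in the filtrate. They cut filtered and locally released peptides, including glutathione and peptide hormones, into small peptides and amino acids, which neighbouring carriers then take up. They appear as proximal tubule cells mature, and several are used as markers of that segment. LIN28 proteins block the processing of let-7 precursors, and let-7 miRNAs repress mRNAs that pair with their seed.

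The mature products of the 3 deleted let-7 genes are shown because they define the let-7 KO comparison. They lie on the minus strand of chromosome 13 (RefSeq, GRCm38.p6), at 48536078 to 48536099, 48537889 to 48537910 and 48538239 to 48538260, and the capitals mark the seed, bases 2 to 8 from the 5′ end:
let-7d: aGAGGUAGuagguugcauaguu
let-7f: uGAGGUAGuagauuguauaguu
let-7a: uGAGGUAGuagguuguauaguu
The seed is the same in all 3. Neither CTACCTC, which pairs with it, nor TACCTCA, the overlapping match that ends in A, occurred in the longest annotated 3′ UTR of any of the 7 peptidase genes (GENCODE M21), whose lengths ran from 141 bases in *Mep1b* to 5698 bases in *Mme*. Across 20042 genes with an annotated 3′ UTR, 9.28% held CTACCTC, 10.1% held TACCTCA and 15.3% held either. The absence of these letters bears on these windows alone.

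Per kilobase of exon, *Ggt1* and *Mep1a* held the highest levels in every group. In LIN28B control kidneys *Ggt1* averaged 115.9 ± 7.53 RPKM (TMM CPM per kilobase of exonic length; SD, n = 3) and *Mep1a* 83.9 ± 5.23, and *Ggt1* was above *Mep1a* in 3 of 3 kidneys. *Dpep1* (43.6 ± 4.98 RPKM), *Dpp4* (41.7 ± 6.42) and *Mep1b* (38.9 ± 5.13) followed, and the neighbours *Dpep1* and *Dpp4*, and *Dpp4* and *Mep1b*, kept their order in only 2 of 3 control kidneys. *Anpep* (20.0 ± 1.80 RPKM) and *Mme* (13.2 ± 2.98) were lowest. The order differed in let-7 KO kidneys, where *Mep1b* (56.7 ± 3.86 RPKM) stood above *Dpp4* (45.9 ± 6.92) in 3 of 3 kidneys, and *Mme* (20.3 ± 6.26) stood above *Anpep* (17.6 ± 3.22) in 2 of 3. It also differed in LIN28B OE kidneys, where *Dpp4* (29.3 ± 5.51 RPKM) stood above *Dpep1* (27.5 ± 7.25) in 2 of 3.

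**Figure D1:**
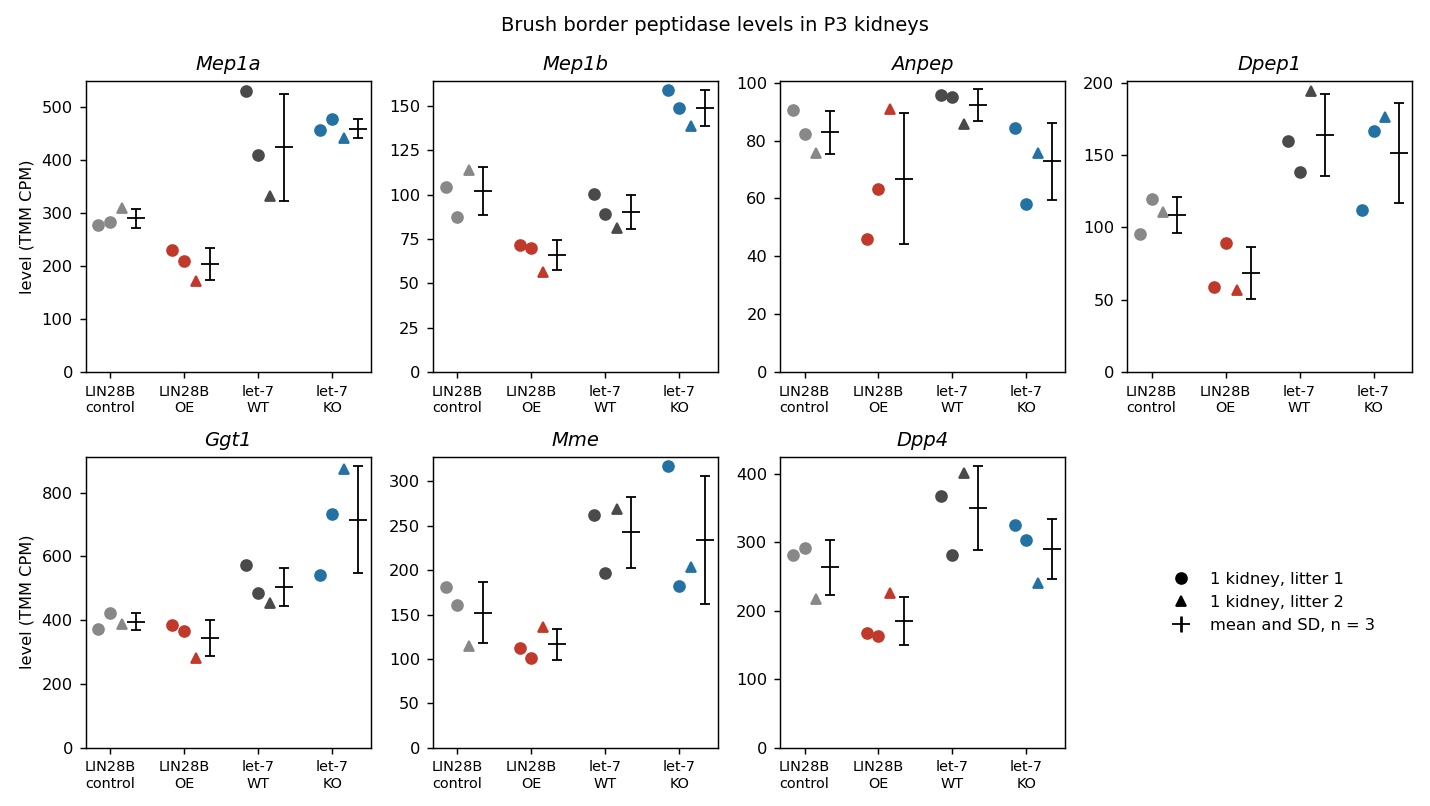
Level of each peptidase gene in every kidney (vertical axes, TMM CPM from 0) in the 4 groups; circles are litter 1, triangles litter 2, and the bars beside them the mean and SD of 3 kidneys. For *Mep1b* the let-7 KO kidneys lie at 138.7 to 159.0 CPM, above every other kidney, and the LIN28B OE kidneys at 56.5 to 71.7 CPM, below every other kidney.

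In LIN28B OE kidneys *Mep1a*, *Mep1b* and *Dpep1* were lowered at an unadjusted p below 0.01, to 0.704, 0.648 and 0.630 of the control level, and the fold changes of the other 4 genes were also below 1. In let-7 KO kidneys *Mep1b* alone passed that threshold, and in the opposite direction, at 1.63 times the let-7 WT level. None of the 7 had an adjusted p below 0.05 in either model (edgeR quasi-likelihood test, Benjamini-Hochberg over all genes tested). The counts at p below 0.01 stand against 1158 of 15793 genes (7.33%) called in LIN28B OE, with 4.08% lowered and 3.25% raised, and 423 of 15500 (2.73%) in let-7 KO, with 1.10% raised and 1.63% lowered. At an adjusted p below 0.05 the edgeR shares over all genes were 1.23% and 0.0194%. At an unadjusted p below 0.05 edgeR called 4 of the 7, all lowered, in LIN28B OE, where 9.48% of all genes were lowered, and 2, both raised, in let-7 KO, where 5.28% were raised. DESeq2 gave an adjusted p below 0.05 to *Mep1a*, *Mep1b* and *Dpep1* in LIN28B OE, where 4.30% of the genes it adjusted were lowered, and to *Mep1b* in let-7 KO, where 1.65% were raised.

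**Figure D2:**
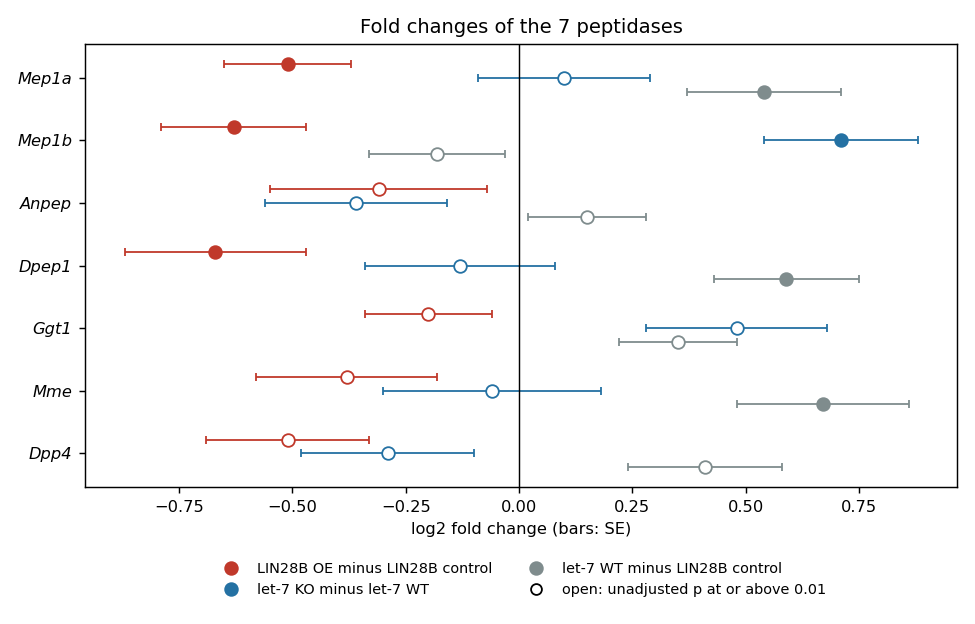
Log2 fold change (horizontal axis, bars SE) of each peptidase gene in LIN28B OE against LIN28B control, let-7 KO against let-7 WT, and let-7 WT against LIN28B control, with filled points for an unadjusted p below 0.01 and open points otherwise. The LIN28B OE points all lie left of 0, from -0.67 to -0.20, and the let-7 KO points run from -0.36 to 0.71.

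The meprin genes encode the subunits of a secreted and membrane-bound metalloprotease of the brush border. *Mep1a* (chr17:43474324-43502812, minus strand, GRCm38) stood at 276.2, 282.1 and 310.0 CPM in the LIN28B control kidneys and at 230.0, 209.9 and 171.3 CPM in the LIN28B OE kidneys. The groups did not overlap, and the kidney from litter 2 was the lowest of the LIN28B OE group and the highest of the controls. The log2 fold change was -0.51 (SE 0.14, p = 0.005111, adjusted p = 0.1068, edgeR quasi-likelihood test), and the exact two-sided permutation test gave p = 0.1, the smallest that 3 against 3 allows. In let-7 WT kidneys *Mep1a* stood at 530.4, 408.5 and 331.3 CPM and in let-7 KO kidneys at 456.1, 476.7 and 441.1 CPM. The let-7 KO kidneys lay inside the WT range, with a log2 fold change of 0.10 (SE 0.19, edgeR p = 0.6309, exact permutation p = 0.6).

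*Mep1b* (chr18:21061923-21100199, plus strand, GRCm38), the membrane-anchoring beta subunit, did not overlap its controls in either model. It stood at 104.4, 87.5 and 114.2 CPM in LIN28B control kidneys and at 71.7, 70.1 and 56.5 CPM in LIN28B OE kidneys. It stood at 100.2, 89.2 and 81.2 CPM in let-7 WT kidneys and at 159.0, 148.8 and 138.7 CPM in let-7 KO kidneys. The LIN28B OE kidneys were the lowest of the 12 and the let-7 KO kidneys the highest, and the ranges of both control groups overlapped. The log2 fold change was -0.63 (SE 0.16, p = 0.003485, adjusted p = 0.092) in LIN28B OE and 0.71 (SE 0.17, p = 0.001862, adjusted p = 0.3583) in let-7 KO, both by edgeR's quasi-likelihood test, with an exact permutation p of 0.1 in each. Within litters the difference in mean log2(CPM + 0.5) was -0.43 in litter 1 and -1.01 in litter 2 for LIN28B OE, and 0.70 and 0.77 for let-7 KO.

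The effects of the 2 models on *Mep1b* differed by -1.35 on the log2 scale (SE 0.22, adjusted p = 0.09767, interaction in the edgeR fit of all 12 kidneys). No other peptidase gene passed p below 0.01 in that test, in which 1.55% of all 16598 genes did. *Ggt1* (-0.71, SE 0.25, adjusted p = 0.6875) and *Mep1a* (-0.62, SE 0.24, adjusted p = 0.7075) came next, and the difference for *Anpep* was 0.03 (SE 0.31, adjusted p = 0.9999).

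The ratio of *Mep1b* to *Mep1a*, each per kilobase, separated the let-7 WT kidneys from the rest. It was 0.248, 0.287 and 0.322 in let-7 WT, against 0.459, 0.411 and 0.414 in let-7 KO, a log2 difference of 0.59 (exact permutation p = 0.1). In LIN28B control it was 0.497, 0.408 and 0.484 and in LIN28B OE 0.410, 0.439 and 0.434, a log2 difference of -0.11 (exact permutation p = 0.4). The let-7 KO ratio (mean 0.428 ± 0.0268, SD, n = 3) was therefore close to that of both C57BL/6 groups, and the let-7 WT ratio (0.286 ± 0.0369) lay below all of them. The levels behind the ratio were not alike. *Mep1a* and *Mep1b* averaged 458.0 and 148.9 CPM in let-7 KO, 289.5 and 102.0 in LIN28B control and 203.7 and 66.1 in LIN28B OE. In let-7 WT they averaged 423.4 and 90.2 CPM. Which strain's *Mep1b* alleles each mixed-background kidney carried was not tested.

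**Figure D3:**
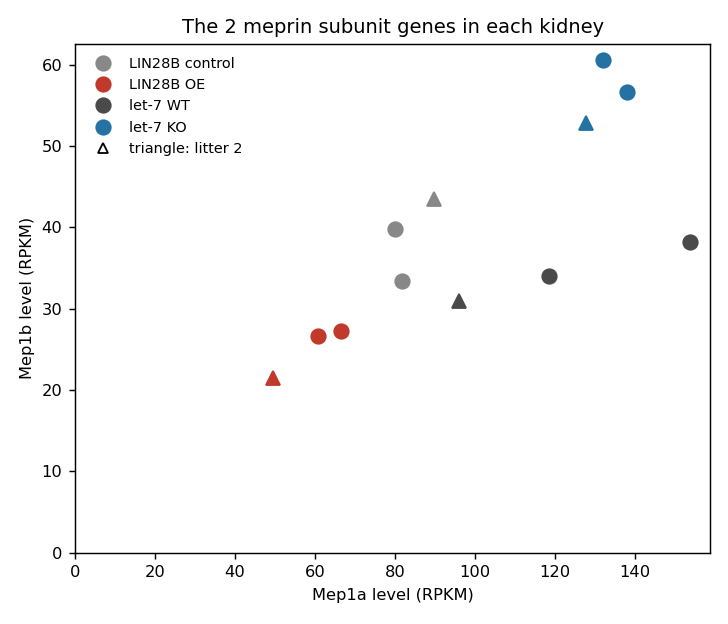
*Mep1b* level against *Mep1a* level in each kidney (both RPKM), coloured by group, with triangles for litter 2. LIN28B OE, LIN28B control and let-7 KO kidneys share a *Mep1b* to *Mep1a* ratio between 0.408 and 0.497, and the let-7 WT kidneys lie below them, at 0.248 to 0.322.

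*Dpep1* (chr8:123186242-123201812, plus strand, GRCm38), a zinc dipeptidase that splits cysteinylglycine among other dipeptides, stood at 95.1, 119.6 and 110.4 CPM in LIN28B control kidneys and at 58.9, 89.1 and 56.9 CPM in LIN28B OE kidneys. The groups did not overlap, and the log2 fold change was -0.67 (SE 0.20, edgeR p = 0.007185, adjusted p = 0.1214, exact permutation p = 0.1). With litter as a block the value was -0.68 (SE 0.20, adjusted p = 0.1776), and the unadjusted p no longer passed 0.01. In let-7 WT it stood at 159.3, 138.2 and 193.9 CPM and in let-7 KO at 112.1, 166.6 and 176.0 CPM. Those groups overlapped, with a log2 fold change of -0.13 (SE 0.21, edgeR p = 0.5424, exact permutation p = 0.7).

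*Ggt1* (chr10:75561604-75586200, plus strand, GRCm38), which starts the breakdown of extracellular glutathione, had the highest level of the 7 per kilobase. Its levels were 373.8, 423.8 and 388.7 CPM in LIN28B control and 385.4, 366.9 and 279.9 CPM in LIN28B OE, with overlapping groups and a log2 fold change of -0.20 (SE 0.14, edgeR p = 0.1949, exact permutation p = 0.2). In let-7 WT it stood at 571.8, 486.5 and 454.3 CPM and in let-7 KO at 541.5, 731.5 and 873.6 CPM. Of the let-7 KO kidneys, 2 lay above every WT kidney, but the log2 fold change of 0.48 (SE 0.20, edgeR p = 0.03275, adjusted p = 0.4165, exact permutation p = 0.2) did not pass the threshold. The kidney from litter 2 was the highest of the let-7 KO group and the lowest of the WT group, and the difference within litters was 0.25 in litter 1 and 0.94 in litter 2.

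*Anpep* (chr7:79821803-79861059, minus strand, GRCm38), which removes neutral amino acids from the N-terminus of peptides, was below every control in 2 LIN28B OE kidneys and above every control in the third. Its levels were 90.7, 82.2 and 75.8 CPM in LIN28B control and 46.1, 63.3 and 91.0 CPM in LIN28B OE, where its SD of 22.7 on a mean of 66.8 CPM was the largest of the 7 genes relative to the mean. The log2 fold change was -0.31 (SE 0.24, edgeR p = 0.2234, exact permutation p = 0.4). In let-7 WT it stood at 95.9, 95.1 and 85.9 CPM and in let-7 KO at 84.3, 58.2 and 75.8 CPM. These groups did not overlap, yet the difference of -0.36 (SE 0.20, edgeR p = 0.09642, exact permutation p = 0.1) was not called.

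*Mme* (chr3:63241537-63386030, plus strand, GRCm38), which inactivates natriuretic and other peptides, stood at 181.4, 160.6 and 114.3 CPM in LIN28B control and at 112.0, 101.1 and 136.0 CPM in LIN28B OE, with a log2 fold change of -0.38 (SE 0.20, edgeR p = 0.08085, exact permutation p = 0.2). In let-7 WT it stood at 262.4, 196.8 and 268.6 CPM and in let-7 KO at 316.9, 182.6 and 203.6 CPM. The let-7 KO kidneys held both the highest and the lowest value of that pair of groups, and the fold change was -0.06 (SE 0.24, edgeR p = 0.8008, exact permutation p = 0.9) on the log2 scale. Neprilysin is also made by podocytes, so its level is not that of the tubule alone.

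*Dpp4* (chr2:62330073-62412231, minus strand, GRCm38), which removes dipeptides ending in proline or alanine from incretins and other peptides, stood at 281.9, 291.8 and 217.1 CPM in LIN28B control and at 167.9, 162.6 and 225.4 CPM in LIN28B OE. The LIN28B OE kidneys of litter 1 lay below every control and that of litter 2 inside the control range, with a log2 fold change of -0.51 (SE 0.18, edgeR p = 0.01798, adjusted p = 0.1746, exact permutation p = 0.2). In let-7 WT it stood at 368.5, 281.2 and 400.9 CPM and in let-7 KO at 325.4, 302.9 and 241.0 CPM. Those groups overlapped, with a log2 fold change of -0.29 (SE 0.19, edgeR p = 0.1685, exact permutation p = 0.3). The exons of *Dpp4* share 232 bases with the antisense gene *Gm13561*, which has no row of its own in the files, and the strand setting of the counting was not given.

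Within the LIN28B experiment the 7 genes differed between the litter 1 kidneys and the single litter 2 pair. In that pair, Y-linked genes summed to 0.0988 CPM in the LIN28B OE kidney and to 168.0 CPM in the control. In litter 1 they summed to 156.4 and 0.0561 CPM in LIN28B OE and to 0.0673 and 0.161 CPM in controls. Litter, sex and single kidney cannot be told apart here. In litter 1 the difference of LIN28B OE from control was -0.67 for *Anpep*, -0.68 for *Mme* and -0.79 for *Dpp4*, and in litter 2, with 1 kidney a side, it was 0.26, 0.25 and 0.05 (mean log2(CPM + 0.5)). *Mep1a* went from -0.34 in litter 1 to -0.85 in litter 2, *Dpep1* from -0.56 to -0.95 and *Ggt1* from -0.08 to -0.47. The first 3 genes have the longest exonic sequence of the 7, at 4135, 11542 and 6319 bases, against 2486 to 3452 bases for the others. For each kidney a slope on exonic length was fitted across 16419 genes, from log2 levels relative to each gene's mean over all kidneys. As log2 change per doubling of length, it was -0.0368, -0.0350 and 0.0877 in the LIN28B OE kidneys and 0.0888, 0.0554 and -0.00417 in their controls. In let-7 WT it was 0.0239, -0.0641 and 0.0931 and in let-7 KO 0.00971, -0.0965 and -0.122. With this slope as a covariate, an alternative chosen after the data were seen, 5 of the 7 genes were lowered in LIN28B OE: *Mep1a*, *Mep1b*, *Dpep1*, *Dpp4* and *Ggt1*. Calls over all genes rose too, from 1158 to 1715, with 5.58% of all genes lowered. *Anpep* (-0.14, SE 0.15) and *Mme* (-0.19, SE 0.12) were nearer to 0 under it and not called. Its part in the levels was not otherwise tested.

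**Figure D4:**
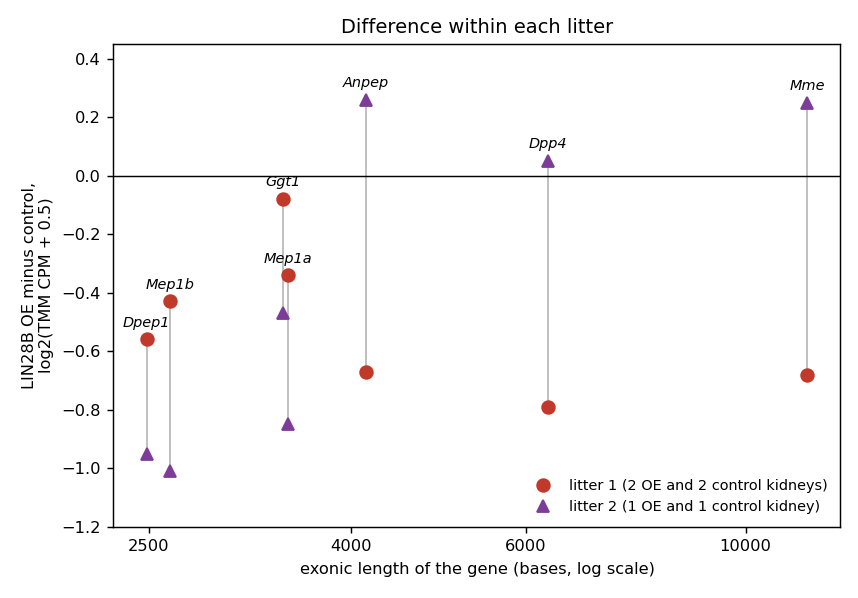
Difference between LIN28B OE and LIN28B control within each litter (vertical axis, mean log2(TMM CPM + 0.5)) against the exonic length of each gene (horizontal axis, bases, log scale). *Anpep*, *Dpp4* and *Mme*, the 3 longest, lie below 0 in litter 1 and above 0 in litter 2, and the other 4 genes lie below 0 in both.

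Leaving out 1 kidney changed the LIN28B OE calls among the 7 and over all genes (1158 with every kidney). Without control kidney 1 only *Dpep1* was called (530 genes over all), and without control kidney 2 only *Mep1b* (515). Without control kidney 3 only *Dpp4* was called (892 genes over all). Without LIN28B OE kidney 1 *Mep1a* and *Mep1b* were called (833), and without kidney 2 *Mep1b* and *Dpep1* (781). Without LIN28B OE kidney 3 there were 4 calls, *Mep1a*, *Mep1b*, *Anpep* and *Dpp4*, while calls over all genes rose to 2509. In let-7 KO, *Mep1b* was called whichever kidney was left out, with log2 fold changes from 0.63 to 0.79. *Ggt1* (0.64) was also called without let-7 KO kidney 1, where calls over all genes rose from 423 to 1296. The other let-7 KO fits with a kidney left out gave 162 to 377 genes over all.

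The control groups were compared because they set the level from which each model was read. Between let-7 WT and LIN28B control, 3 of the 7 genes were higher in let-7 WT at p below 0.01: *Dpep1* (log2 difference 0.59, SE 0.16, p = 0.004286), *Mme* (0.67, SE 0.19, p = 0.006255) and *Mep1a* (0.54, SE 0.17, p = 0.009424), by edgeR, each with an exact permutation p of 0.1. None was lower, and none had an adjusted p below 0.05 in edgeR, whereas in DESeq2 these 3 did, with 2.65% of the genes it adjusted higher. At an unadjusted p below 0.05 edgeR called 5 of the 7, all higher, against 1109 of 15850 genes (7.0%). Over all 15850 genes 4.79% were called by edgeR at p below 0.01, 2.82% higher and 1.97% lower, and 1.19% had an adjusted p below 0.05. *Dpp4* (0.41), *Ggt1* (0.35), *Anpep* (0.15) and *Mep1b* (-0.18) did not pass. *Mep1b* was the only one of the 7 with a negative value. Strain, experiment, litter and the mix of sexes all differ between these groups and cannot be told apart. Y-linked genes summed to 0.0673, 0.161 and 168.0 CPM in LIN28B control and to 0.0170, 140.8 and 215.6 CPM in let-7 WT. This comparison shares kidneys with both models. Without let-7 WT kidney 1 or without LIN28B control kidney 3, 0 of the 7 were called at p below 0.01. Calls over all genes in these fits are not given, so the loss cannot be read as particular to the 7.

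The promoters of *Mep1a* and *Dpep1* are shown because both genes were lowered in LIN28B OE kidneys. For *Mep1b*, the other gene lowered there, no window was used. Matches to CAAAGT, a half-site of the nuclear receptor HNF4, are marked as a description of the letters. Each window spans the annotated start (RefSeq, GRCm38.p6) and is written 5′ to 3′ along the gene's strand, with the half-site in capitals. They are chr17:43502724-43503023, minus strand, for *Mep1a*, where the half-site starts 29 bases before the transcription start, and chr8:123185985-123186284, plus strand, for *Dpep1*, where its reverse complement starts 190 bases before it:
Mep1a: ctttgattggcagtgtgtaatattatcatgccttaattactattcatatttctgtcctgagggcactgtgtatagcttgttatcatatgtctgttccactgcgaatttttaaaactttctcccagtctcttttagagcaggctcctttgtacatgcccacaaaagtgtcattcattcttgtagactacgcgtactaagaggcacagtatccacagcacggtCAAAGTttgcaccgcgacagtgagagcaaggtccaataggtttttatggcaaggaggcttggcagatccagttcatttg
Dpep1: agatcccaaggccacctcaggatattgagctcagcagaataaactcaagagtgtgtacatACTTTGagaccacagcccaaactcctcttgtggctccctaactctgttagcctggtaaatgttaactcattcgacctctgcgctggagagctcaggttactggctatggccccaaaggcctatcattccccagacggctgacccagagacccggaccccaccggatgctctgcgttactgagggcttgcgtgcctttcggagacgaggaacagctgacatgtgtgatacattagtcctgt
On both strands, CAAAGT occurred in 4 of the 11 windows annotated for 6 of the genes, in windows of *Mep1a*, *Dpep1*, *Ggt1* and *Mme*, and in 14.4% of 32851 windows of the same length. These shares are not a like comparison, since 4 of the 11 windows belong to *Ggt1* and 3 to *Mme*, of which 2 overlap. *Ggt1* and *Mme* were not called in LIN28B OE, nor was *Hnf4a* (-0.29, SE 0.15, adjusted p = 0.3342, edgeR). *Hnf4a* was not called in let-7 KO (-0.35, SE 0.18), but between the control groups it was higher in let-7 WT (0.93, SE 0.14, adjusted p = 0.01634, edgeR). A role of HNF4 in these levels was not tested. The longer form CAAAGTCCA, which contains it, occurred in 0 of the 11 windows and in 0.475% of all, and the HNF1 half-site GTTAAT in 0 of 11 and in 7.10% of all.

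Other surface peptidases, from a list made by role, were also lowered in LIN28B OE. Of 14 tested, 6 were lowered and 0 raised, with a median log2 fold change of -0.81, against -0.51 for the 7 genes and -0.02 over all genes tested. *Ace* (angiotensin-converting enzyme, -0.92, SE 0.16, adjusted p = 0.02953), *Enpep* (aminopeptidase A, -0.82, SE 0.20, adjusted p = 0.0741) and *Xpnpep2* (membrane aminopeptidase P, -0.88, SE 0.27, adjusted p = 0.1287) were lowered. In let-7 KO edgeR called 0 of 14 in either direction, with a median of -0.35, and *Ace* (-0.16), *Enpep* (-0.69, adjusted p = 0.3903) and *Xpnpep2* (-0.51) did not pass. At an unadjusted p below 0.05 it called 2, both lowered, but the share of all genes lowered at that cut is not given. Among 15 soluble peptidases, which cut peptides inside cells, 2 were raised and 1 lowered in LIN28B OE, with a median of -0.02. *Dpp3*, a cytosolic peptidase, rose by 0.75 (SE 0.13, adjusted p = 0.03214).

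Carriers take up the products of these enzymes. In LIN28B OE, 10 of 15 peptide and amino acid uptake genes were lowered and 0 raised, with a median of -1.01. *Tmem27*, the collectrin that brings amino acid carriers to the brush border, fell by 1.01 (SE 0.15, adjusted p = 0.01462), *Slc6a19*, the main neutral amino acid carrier, fell by 2.40 (SE 0.36, adjusted p = 0.01821), and *Slc15a2*, a di- and tripeptide carrier, fell by 0.83 (SE 0.19, adjusted p = 0.06824). In let-7 KO 4 of 15 were lowered (median -0.59). *Slc7a8*, an exchanger of neutral amino acids, had the smallest p there (0.499 of the WT level, SE 0.18 on the log2 scale, adjusted p = 0.239), and *Tmem27* (0.03), *Slc6a19* (-0.67) and *Slc15a2* (-0.81) did not pass.

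Of 10 genes of the glutathione cycle, in which *Ggt1* and *Dpep1* act outside the cell, 3 were lowered and 0 raised in LIN28B OE (median -0.57), among them *Gclm*, the modifier subunit of the enzyme that starts glutathione synthesis (-0.61, SE 0.13, adjusted p = 0.0574). In let-7 KO edgeR called 0 of 10 (median -0.22). At an unadjusted p below 0.05 it called 2, both lowered, and the share of all genes lowered at that cut is not given. Of 12 brush border structure genes 3 were lowered in LIN28B OE (median -0.47), with *Alpl* (alkaline phosphatase) at -1.27 (SE 0.20, adjusted p = 0.01986), and 1 in let-7 KO (median -0.26), *Cdhr2*, a protocadherin that links microvilli, at -1.02 (SE 0.24, adjusted p = 0.3447).

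**Figure D5:**
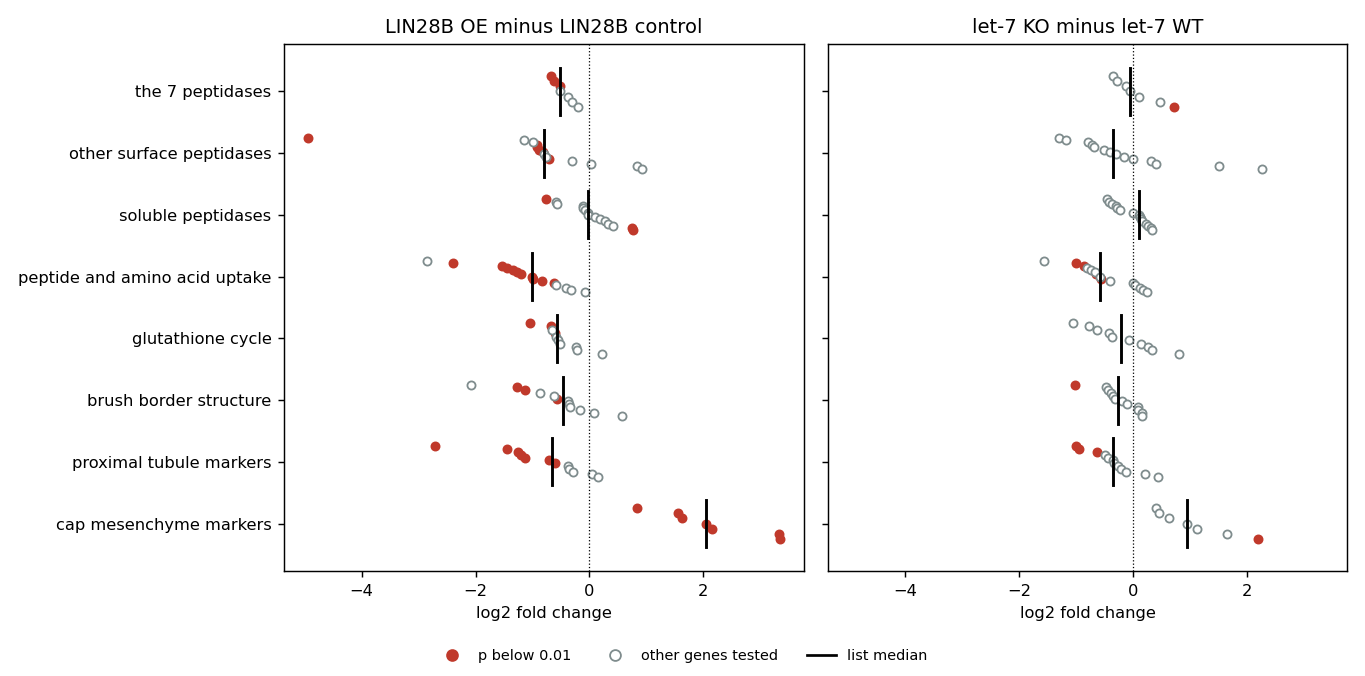
Log2 fold changes (horizontal axis) of the genes of 8 lists in LIN28B OE (left) and let-7 KO (right); each point is 1 gene, red for an unadjusted p below 0.01, and the bar is the list median. The median of the 7 peptidases is -0.51 in LIN28B OE and -0.06 in let-7 KO, and cap mesenchyme markers have medians of 2.04 and 0.94.

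The number of proximal tubule cells was not measured, and in whole kidneys fewer cells of a type and less RNA per cell cannot be told apart. Of 12 proximal tubule markers 7 were lowered in LIN28B OE (median -0.66), with *Slc34a1*, the phosphate carrier, at -1.20 (SE 0.10, adjusted p = 0.000977), and their summed level was 1296.0 to 1572.0 CPM against 2707.5 to 2770.6 CPM in controls. The summed level of the 7 peptidases was 1017.0 to 1071.9 CPM against 1330.6 to 1447.7 CPM. In let-7 KO, 3 of the 12 markers were lowered (median -0.34), and their sum was 2981.7 to 3409.1 CPM against 3757.3 to 4454.2 CPM in let-7 WT. The 7 peptidases summed to 1995.2 to 2149.8 CPM against 1695.5 to 2088.6 CPM, with overlapping ranges. This sum gives most weight to abundant genes, and *Ggt1*, which was not called, averaged 715.5 CPM in let-7 KO against 504.2 CPM in let-7 WT. By fold change 3 of the 7 were positive and 4 negative (median -0.06). Between the control groups 7 of 12 markers were higher in let-7 WT (median 0.63). Cap mesenchyme markers, genes of nephron progenitors, rose in LIN28B OE in 7 of 7 cases, led by *Six2* (3.35, SE 0.24, adjusted p = 0.0007973), and their sum was 341.5 to 402.6 CPM against 69.9 to 85.4 CPM. In let-7 KO 1 of 7, *Gdnf*, was raised (2.20, SE 0.62, adjusted p = 0.3623), and the sum was 79.1 to 121.3 CPM against 52.1 to 53.4 CPM. The part of these markers in the peptidase levels was not tested.

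Among the 7 genes the levels were most alike in *Mme* and *Dpp4* (Pearson r = 0.89 of log2(CPM + 0.5) over the 12 kidneys), *Mep1a* and *Ggt1* (0.86), *Mep1a* and *Dpep1* (0.82) and *Mep1a* and *Mep1b* (0.81). *Anpep* was least like the others, with r from -0.07 to 0.62. Among 11822 genes with a mean of at least 5 CPM, those most like *Mep1a* were *Scp2*, *Bhmt2* and *Npy* (0.98 each), and most like *Mep1b* were *Cldn19* (0.93), *C1rl* (0.92) and *Ggact* (0.91). For *Ggt1* they were *Lrpap1* (0.98), *Ldhb* (0.98) and *Prr15l* (0.97), for *Dpep1* *Ispd* (0.94) and *Plbd1* (0.93), and for *Anpep* *Ext2* (0.92), *Pigo* (0.91) and *Slain1* (0.90). For *Mme* they were *Pm20d1* (0.95), *Me1* (0.93) and *Map2k1* (0.93), and for *Dpp4* *Slc1a1* (0.97), *Ankrd13c* (0.96) and *Pttg1ip* (0.96). The 12 kidneys share groups, strains and litters, so these values describe the kidneys together.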

How the data were processed

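RNA of each whole kidney was extracted with Trizol, treated with DNase, made into libraries with a SMARTer Ultra Low RNA kit and sequenced on an Illumina HiSeq instrument. The deposited files, 1 for each kidney, hold unnormalized read counts listed by gene symbol, made by the authors. The submitters' processing notes name cutadapt, TopHat2 2.0.9, Bowtie2, SAMtools 0.1.19, HTSeq and mm10. The annotation and strand setting were not given in the sources used here. Total counts per kidney were 39926235 to 61872736, and 3 counts corresponded to 0.0485 to 0.0751 CPM. This covers counting error only.

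Each comparison was fitted on all genes with edgeR 4.0.16 (R 4.3.3; filterByExpr, TMM, quasi-likelihood test, Benjamini-Hochberg adjustment), and genes were called at the study's threshold of p below 0.01. Standard errors were taken from the F statistic of each fold change. Model differences were tested as an interaction over 12 kidneys. Single genes had an exact two-sided permutation test of log2(CPM + 0.5). Exonic lengths and positions came from GENCODE M21 (GRCm38), where 23639 of 24062 symbols (98.2%) matched. Scripts were tested on simulated counts.

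All 7 genes are given in full. From the other lists, a preset set of peptidases and carriers and the gene with the smallest p in each list and model are named, and the genes most like each member are the 3 with the highest Pearson r. Some genes that this rule names are not reported here. The members and lists were chosen with earlier results of these data known. Litter numbers come from the sample labels and mark shared litters. Deviations of same-litter kidneys from their group means correlated between -0.19 and 0.08, so no shared litter pattern was seen, and litter as a block was an alternative. Others were DESeq2 1.42.0, other scalings and filters, 1 fit of all kidneys, a Y-linked covariate and each kidney left out.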

Additional observations from a re-analysis of the deposited data

Results flagged for a closer look

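The effect of LIN28B OE on *Mep1b* minus the effect of let-7 KO was -1.35 on the log2 scale (edgeR quasi-likelihood interaction test over 12 kidneys, SE 0.22, adjusted p = 0.09767). It is listed because its unadjusted p in that test was below 0.01, as it was for 1.55% of all 16598 genes. At an adjusted p below 0.05 it was not called. All 3 LIN28B OE kidneys were below their controls and all 3 let-7 KO kidneys above theirs. The *Mep1b* to *Mep1a* ratio stood at 0.286 in let-7 WT and at 0.428 to 0.463 in the other group means.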

How the results depend on the processing

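At an adjusted p below 0.05, 0 of the 7 genes were called in LIN28B OE, let-7 KO, the control groups or the model difference in edgeR (194 and 3 genes over all in LIN28B OE and let-7 KO), and in DESeq2 3, 1, 3 and 1 were. The exonic-length covariate gave 5 LIN28B OE calls (1715 genes over all, against 1158) and 2 in the model difference (445 against 257), where DESeq2 also gave 2 (413). DESeq2 gave 843 let-7 KO genes and 1 fit of all kidneys 687. With litter as a replicate block 2 of the 7 were called in LIN28B OE and 1 in let-7 KO, over 904 and 288 genes. Leaving out 1 kidney gave 1 to 4 LIN28B OE calls and 1 to 2 let-7 KO calls among the 7, over 515 to 2509 and 162 to 1296 genes. It gave 0 to 4 in the control groups and 1 to 2 in the model difference, where counts over all genes are not given. In let-7 KO the length covariate turned *Mme* from -0.06 to 0.28 and *Tmem27* to -0.08. With a kidney left out the let-7 KO values ran from -0.06 to 0.29 for *Mep1a*, -0.24 to 0.03 for *Dpep1*, -0.36 to 0.10 for *Mme*, -0.26 to 0.00 for *Ace*, -0.04 to 0.13 for *Tmem27* and -0.84 to 0.11 for *Star*. In the model difference *Anpep* turned to -0.01 with the replicate block, -0.08 with the length covariate and -0.26 to 0.24 with a kidney left out. Of 448 values for the 7 genes under the alternatives, 395 kept direction and side of the threshold, 15 passed it anew, 26 no longer passed and 12 changed sign. Causes were not tested. A low count did not limit any of the 7, whose lowest level was 46.1 CPM.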

Other observations

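In LIN28B OE kidneys 3 of 5 loop and distal tubule markers were lowered (median log2 fold change -0.98), with *Slc12a3*, the sodium chloride carrier of the distal convoluted tubule, at -1.95 (SE 0.16, adjusted p = 0.0009381, edgeR). Of 5 endothelial markers 3 were lowered (median -0.48), of 6 stromal markers 2 (median -0.32), of 6 immune markers 1 (median -0.39) and of 5 collecting duct markers 1 (median -0.47). Of 7 podocyte markers, genes of the filtration barrier cells, 1 was raised, *Cdkn1c* (0.73, SE 0.22, adjusted p = 0.1243), with a median of 0.01. *Cdkn1c* was raised in let-7 KO too (0.79, SE 0.21, adjusted p = 0.3623). There 0 of 5 loop and distal markers, 0 of 5 endothelial, 0 of 6 stromal and 1 of 5 collecting duct markers were called. At an unadjusted p below 0.05, 2 loop and distal markers were lowered, 1 stromal marker was raised and 0 endothelial markers were called. Over all genes 5.28% were raised at that cut, and the share lowered is not given. Adrenal markers summed to at most 4.90 CPM in any kidney. None of the 5 immediate early genes was called in either model by edgeR, and *Egr1*, with the smallest p of them, stood at -0.81 (log2, adjusted p = 0.1493) in LIN28B OE and -1.06 (adjusted p = 0.4889) in let-7 KO.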
